A study of Homo sapiens with 10 samples.

Results

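MEF2A, MEF2B, MEF2C and MEF2D, the class IIa histone deacetylases HDAC4, HDAC5, HDAC7 and HDAC9, and the kinase SIK3 were followed in IRF8 KO cells of the AML line MV4-11. They are 9 of the 19590 genes in the RNA-Seq table and were chosen by symbol. The RNA-Seq compared 4 Control libraries, from cells infected with the control vector, with 4 IRF8 KO libraries. According to the methods of the study, the knockout was made with lentiviral CRISPR vectors carrying Cas9 and a guide RNA, and RNA was taken from clones grown by limiting dilution. The methods name fewer MV4-11 knockout clones than the 4 IRF8 KO libraries, so some of these libraries may share a clone. Which clone a library came from is not stated in the sources used here, so clone and genotype cannot be told apart. MV4-11 is an established line of myeloid leukaemia with a KMT2A rearrangement and an internal tandem duplication of FLT3, and both groups share this background. IRF8 is a transcription factor of the myeloid and lymphoid lineages.

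MEF2 proteins are MADS-box transcription factors first described in muscle, and they also act in neurons and in blood cells. They bind an AT-rich DNA element and recruit either coactivators such as p300 or class IIa HDACs, which bind MEF2 directly and bring corepressors with them. Kinases, among them the salt-inducible kinases SIK1, SIK2 and SIK3, phosphorylate the class IIa HDACs, which then bind 14-3-3 proteins and leave the nucleus, so that MEF2 is released from repression. SIK3 is known to keep MEF2C active in this way in AML cells with high MEF2C, and HDAC9 is itself a described MEF2 target gene. None of these steps is measured by mRNA levels.

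Of the 9 genes, 8 had at least one promoter window in the RefSeq sequences of GRCh38.p14, 24 windows in all. Each window runs from 250 bases before an annotated start to 50 bases after it. A set of 3 motifs was searched for on both strands. The composite element of ETS factors and IRF8 (GGAA and GAAA with any 2 bases between them) was in 0 of the 24 windows and in 2.82% of the 35116 windows of all genes. The interferon response element (GAAA and again GAAA with any 2 bases between them) was also in 0 of 24, against 3.57%. The MEF2 element (CTA and TAG with any 4 bases between them, the same on both strands) was in 2 of 24, against 2.73%, and the windows were 1 of the 3 of MEF2A and 1 of the 5 of HDAC9. These letters describe the windows, and whether a factor binds there was not tested. The stretches around both matches are shown because they place a MEF2 element at the start of 2 genes of the family itself, with the element in capitals. In MEF2A the element lies at chr15:99565961-99565970 on the plus strand of GRCh38.p14 and begins 23 bases before the annotated start. In HDAC9 it lies at chr7:18086817-18086826 on the plus strand, begins 8 bases before the annotated start and runs across it. The corresponding stretch of MEF2D, the member with the lowest adjusted p in the comparison below, is on the minus strand and is shown beside them. Its only window held none of the 3 motifs. All stretches cover 120 bases before the annotated start and the 10 from it, written 5′ to 3′ along the gene.
MEF2A, chr15:99565864-99565993: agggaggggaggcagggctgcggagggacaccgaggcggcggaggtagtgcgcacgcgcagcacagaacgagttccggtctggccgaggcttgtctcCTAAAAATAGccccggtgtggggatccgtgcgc
HDAC9, chr7:18086705-18086834: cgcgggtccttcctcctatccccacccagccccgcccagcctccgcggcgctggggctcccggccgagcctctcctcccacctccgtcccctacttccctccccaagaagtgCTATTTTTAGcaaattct
MEF2D, chr1:156490678-156490807: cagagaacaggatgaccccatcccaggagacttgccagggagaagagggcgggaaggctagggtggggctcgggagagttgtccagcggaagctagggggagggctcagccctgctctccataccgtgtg

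The values are normalized counts, in which the reads of a gene are scaled by a size factor for sequencing depth. Total reads per library ranged from 39560072 to 65519047 (median 52233344). Groups were compared with limma on log2(normalized count + 1) in the 13110 genes whose mean reached 10, with Benjamini-Hochberg adjustment over all of them, and a gene was called at an adjusted p below 0.05. Beside it, exact two-sided permutation tests were made of the 4 and 4 values, for which 0.029 is the smallest possible p. The labels do not say that the libraries of a group came from separate cultures, so the p-values measure the spread between these libraries, which may be technical. The targeted gene, IRF8, had 25.1% of the control mean in the IRF8 KO libraries (log2 fold change -2.11, limma adjusted p = 0.022), without overlap of the groups. Same-numbered libraries deviated together, as did replicates 1 and 3 and replicates 2 and 4 across the groups. The KO libraries also stood apart by whole chromosomes, with a median log2 fold change of -0.92 on chromosome 20, -0.33 on chromosome 21 and -5.55 for the 11 tested genes of Y, against -0.19 to 0.22 on the other chromosomes. None of the 9 genes lies on chromosome 20, 21 or Y. Of the 9 myeloid markers, all were detected. MPO and ITGAM were higher in the KO (log2 fold changes 4.08 and 3.03, limma adjusted p = 9.9e-06 and 9.8e-04). The other 7 were not called, with CD33, FLT3 and CSF1R at -0.34, -0.21 and -0.27 and the rest between 0.19 and 3.09. The summed level of the 9 markers was 95159 to 99126 normalized counts in Control and 113188 to 347191 in the KO libraries. Of this, LYZ had 1734 to 14757 and 13767 to 248604 (limma adjusted p = 0.060). The 4 T cell markers summed to at most 25.7 in any library, and the B cell marker MS4A1, the erythroid marker HBB and the platelet marker PF4 were 0 in all. The part of these differences in the results below was not tested. In such bulk RNA, fewer cells of a kind and less RNA per cell cannot be told apart.

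MEF2D and MEF2C fell in the IRF8 KO cells by limma, edgeR and DESeq2, and none of these tools called a member higher. At an unadjusted limma p below 0.05, 0 members were higher. Of all tested genes, limma called 8.65% higher, edgeR 8.6% and DESeq2 12.8%, and 15.6% were higher at the unadjusted p. All 9 genes passed the filter. The 2 called genes compare with 18.2% of all tested genes called in either direction and 9.56% called lower. With the cut-offs of the study, a p below 0.01 and 2-fold or more, applied here to unadjusted limma p-values, MEF2D was the 1 member called, where 10.9% of all tested genes were called, 6.12% lower and 4.78% higher. For MEF2C, MEF2D and HDAC9 all KO values lay below all Control values, a pattern found in 13.0% of all tested genes, while 25.3% did not overlap in either direction. The median log2 fold change of the 9 genes was -0.36, with 5 below and 4 above 0, and that of all tested genes was -0.0009.

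**Figure D1:**
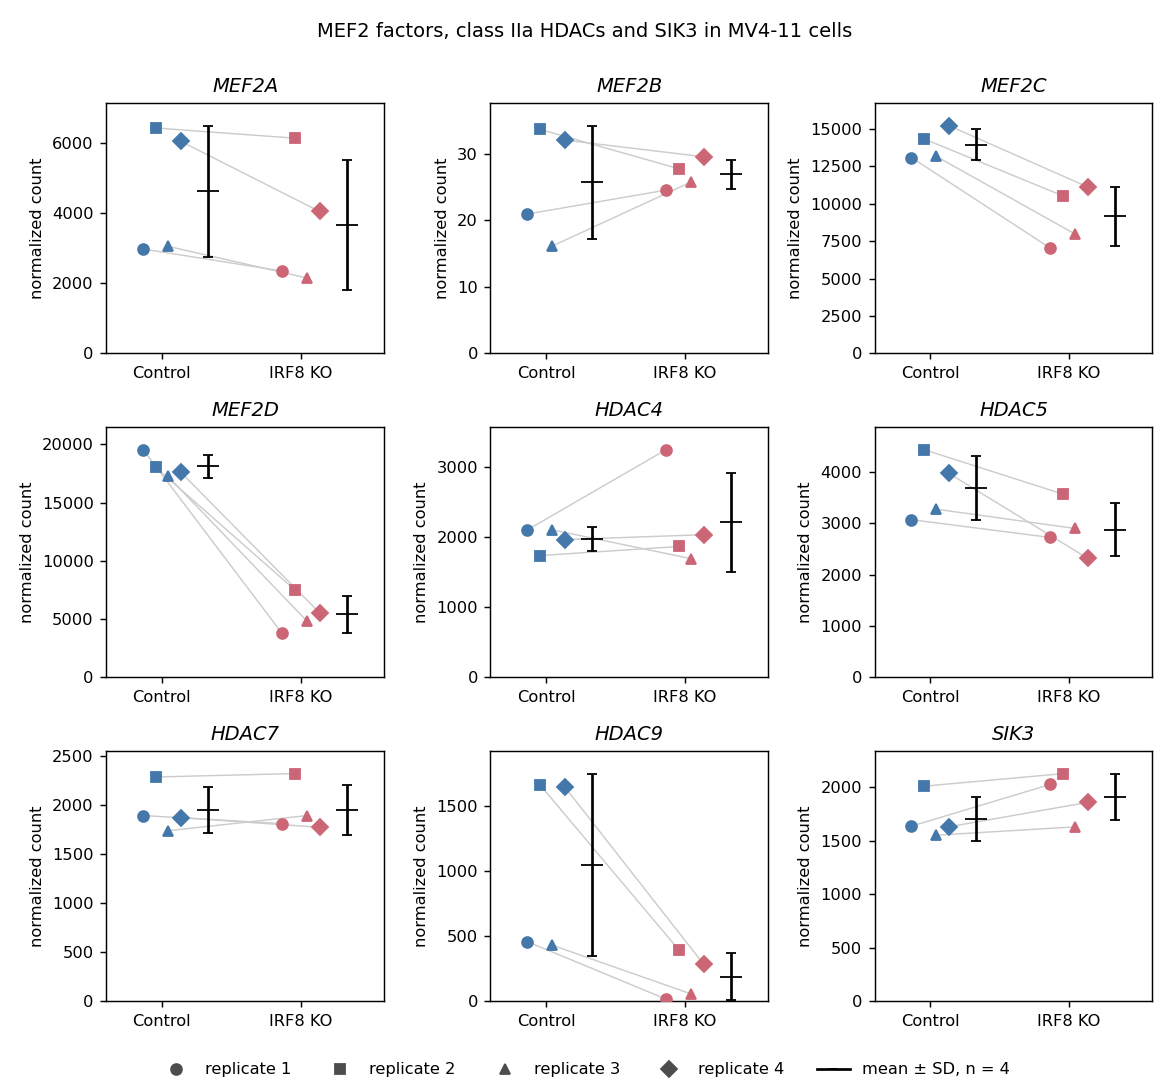
Normalized count of each gene (y axes, linear, from 0) in the Control and IRF8 KO libraries, with 1 marker shape per replicate number, grey lines between libraries of the same number, and the mean ± SD of n = 4 in black. MEF2D falls from about 18106 to 5410, MEF2C and HDAC9 do not overlap between the groups, and in MEF2A and HDAC9 replicates 2 and 4 lie above replicates 1 and 3 in both groups.

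MEF2D, on chromosome 1, encodes a broadly expressed MEF2 factor. It had 19545, 18028, 17237 and 17612 normalized counts in Control replicates 1 to 4. In IRF8 KO replicates 1 to 4 it had 3767, 7525, 4814 and 5533. The lowest Control library was thus well above the highest KO library, and the Control values lay close together. The mean fell from 18106 ± 1013 to 5410 ± 1586 (SD, n = 4 each), to 29.9% of the control. The log2 fold change was -1.79 (SE 0.20, 95% interval -2.23 to -1.34, limma adjusted p = 5.0e-04, exact permutation p = 0.029). Of all tested genes, 4.05% had a log2 fold change at or below this. Pair by pair, the KO library held 19.3%, 41.7%, 27.9% and 31.4% of the Control library with the same number. The fall was present in both sets of replicates, with log2 fold changes of -2.11 in replicates 1 and 3 and -1.47 in replicates 2 and 4. With any 1 library left out it stayed between -1.96 and -1.63, and MEF2D was called each time. Its call was lost in the fit on the means of replicates 1 and 3 and of replicates 2 and 4, which has 4 values in place of 8 (limma adjusted p = 0.067). The 1337 tested genes of chromosome 1 had a median log2 fold change of -0.01.

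MEF2C, on chromosome 5, encodes the MEF2 factor of myeloid and B lymphoid progenitors and is known for its high level in KMT2A-rearranged leukaemia. Control replicates 1 to 4 had 13092, 14343, 13164 and 15224 normalized counts. IRF8 KO replicates 1 to 4 had 7031, 10527, 7964 and 11117. The groups did not overlap, and in both of them replicates 1 and 3 were the lower ones. The mean fell from 13955 ± 1022 to 9160 ± 1972 (SD, n = 4 each), 1.52-fold (log2 fold change -0.63, SE 0.16, 95% interval -1.0 to -0.26, limma adjusted p = 0.028, exact permutation p = 0.029). The call was a narrow one. It was lost when any 1 of the Control libraries, KO replicate 1 or KO replicate 3 was left out, with limma adjusted p-values of 0.055 to 0.076 and log2 fold changes of -0.66 to -0.51. When the shared replicate number entered the fit as a block, so that libraries were compared within their pair, MEF2C had a limma adjusted p of 0.0066, while the fit on the means of the replicate sets did not call it (limma adjusted p = 0.34). In replicates 1 and 3 the log2 fold change was -0.81 (limma adjusted p = 0.016) and -0.45 in replicates 2 and 4 (limma adjusted p = 0.041). The 592 tested genes of chromosome 5 had a median log2 fold change of 0.22, and MEF2C lay 0.85 below it.

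The ratio of MEF2D to MEF2C within a library was lower in every KO library than in any Control library. Since transcript length was not taken into account, the ratio compares libraries and not the levels of both genes. It was 1.49, 1.26, 1.31 and 1.16 in the Control and 0.536, 0.715, 0.604 and 0.498 in the IRF8 KO replicates 1 to 4. This ratio was chosen after the values were seen and was not tested.

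MEF2A, on chromosome 15, encodes a broadly expressed MEF2 factor, and its differences between replicates were larger than those between the groups. Control replicates 1 to 4 had 2975, 6427, 3051 and 6049 normalized counts. IRF8 KO replicates 1 to 4 had 2348, 6137, 2148 and 4046. The groups overlapped, while replicates 2 and 4 exceeded replicates 1 and 3 by 2.07-fold in Control and 2.26-fold in the KO. The log2 fold change was -0.37 (SE 0.40, 95% interval -1.27 to 0.53, limma adjusted p = 0.58, exact permutation p = 0.43). Each KO library was below the Control library of its number, at 78.9%, 95.5%, 70.4% and 66.9%. With the replicate block the SE was 0.12 and the limma adjusted p 0.052, so the threshold was not passed.

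MEF2B, on chromosome 19, encodes the MEF2 factor of germinal centre B cells and was near the limit of counting here. It rested on 15 to 39 reads per library. Control replicates 1 to 4 had 20.9, 33.6, 16.1 and 32 normalized counts, and IRF8 KO replicates 1 to 4 had 24.5, 27.7, 25.7 and 29.5. The groups overlapped (log2 fold change 0.12, SE 0.31, 95% interval -0.59 to 0.83, limma adjusted p = 0.85). For the Control library with 15 reads, the exact 95% Poisson interval of 9.0 to 26.6 normalized counts spans most of the range of the gene, and it covers counting error only. Reads of MEF2B are uncertain, since the readthrough gene BORCS8-MEF2B overlaps it and was listed at 0 in all 8 libraries.

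HDAC9, on chromosome 7, encodes a class IIa HDAC that also exists in a form without the deacetylase domain, and counts per gene do not separate the forms. Control replicates 1 to 4 had 457, 1661, 429.6 and 1643 normalized counts. IRF8 KO replicates 1 to 4 had 16.0, 395, 55.5 and 283, with 15 reads in the lowest library. The groups did not overlap, but the gap was small beside the spread, since the lowest Control value of 429.6 stood next to the highest KO value of 394.8. The means were 1048 ± 698 and 187 ± 182 (SD, n = 4 each), so that the KO mean was 17.9% of the control mean. The log2 fold change was -3.07 (SE 0.99, 95% interval -5.33 to -0.81, exact permutation p = 0.029), and the limma adjusted p of 0.064 missed the threshold.

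The spread of HDAC9 followed the replicate sets. Replicates 2 and 4 exceeded replicates 1 and 3 by 3.72-fold in Control and 9.25-fold in the KO libraries. Each KO library was below the Control library of the same number, at 3.50%, 23.8%, 12.9% and 17.2% of it. With the replicate block HDAC9 was called (SE 0.41, limma adjusted p = 0.0022), at a setting where 28.7% of all tested genes were called and 14.6% were called lower. Within replicates 1 and 3 the log2 fold change was -3.84 (limma adjusted p = 0.022), and within replicates 2 and 4 it was -2.30 (limma adjusted p = 0.0037). DESeq2 on the recovered reads gave -2.48 with an adjusted p of 0.046, edgeR -2.49 with 0.10. Of the 8 fits that left out 1 library, only that without KO replicate 2 called HDAC9 (-3.72, limma adjusted p = 0.033). The others had limma adjusted p-values of 0.064 to 0.15, with a log2 fold change of -2.21 without KO replicate 1. A fit on the means of replicates 1 and 3 and of 2 and 4 did not call it (limma adjusted p = 0.36). Only MEF2A and HDAC9 among the 9 genes differed at least 1.5-fold between the replicate sets in the same direction in both groups, where 11.7% of all tested genes did. What the sets mark is not stated in the sources used here.

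**Figure D2:**
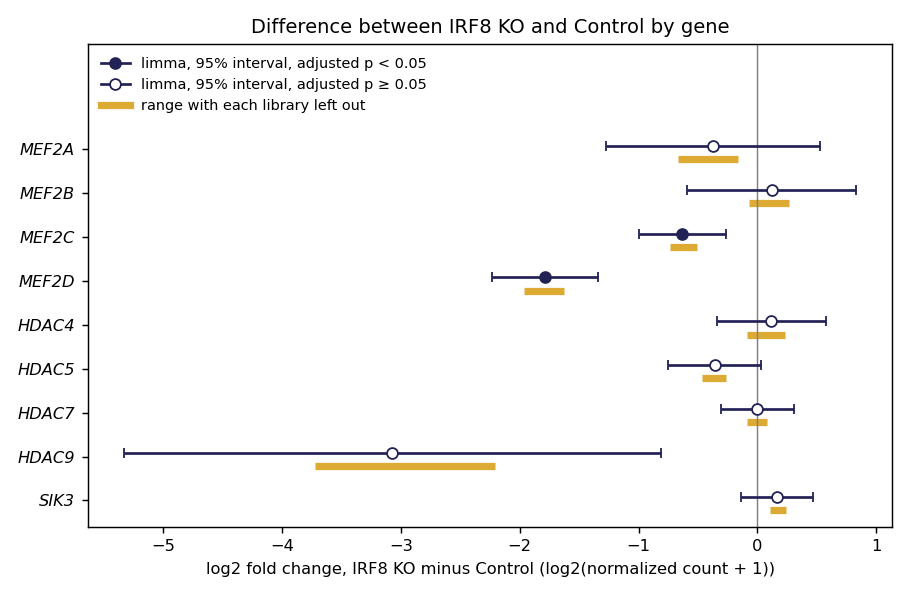
Log2 fold change of each gene, IRF8 KO minus Control (x axis), with its 95% interval from limma, filled where the adjusted p was below 0.05, and in yellow the range when each library was left out in turn. MEF2D and MEF2C are filled, HDAC9 has the lowest value with the widest interval, and HDAC4, HDAC7, SIK3 and MEF2B lie between 0.0006 and 0.16.

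The other class IIa HDACs did not pass the test. HDAC4, on chromosome 2, encodes the family member best known from bone and muscle. It had 2102, 1736, 2104 and 1964 normalized counts in Control replicates 1 to 4, and 3248, 1866, 1691 and 2034 in IRF8 KO replicates 1 to 4. KO replicate 1 was the highest of all libraries, KO replicate 3 the lowest, and the other KO libraries lay within the Control range. Between the groups the log2 fold change was 0.12 (SE 0.20, 95% interval -0.34 to 0.57, limma adjusted p = 0.76), and it was -0.08 without KO replicate 1.

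HDAC5, on chromosome 17, is another HDAC that binds MEF2. Its values were 3068, 4433, 3272 and 3969.5 normalized counts in Control replicates 1 to 4, and 2722, 3567, 2897 and 2314 in IRF8 KO replicates 1 to 4. The groups overlapped, although the KO library of each number was below its Control library. The KO mean was 78.0% of the control mean (log2 fold change -0.36, SE 0.17, 95% interval -0.75 to 0.03, limma adjusted p = 0.19, exact permutation p = 0.11). HDAC7, on chromosome 12, is the class IIa HDAC of lymphoid cells and endothelium. It had 1892, 2285, 1738 and 1871 normalized counts in Control replicates 1 to 4, and 1809.5, 2320, 1892 and 1773 in IRF8 KO replicates 1 to 4. Both groups covered nearly the same range, with replicate 2 the highest in each. The 95% interval of the log2 fold change was -0.31 to 0.31 (limma adjusted p = 1.00), which bounds a difference in either direction but does not show equality.

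SIK3, on chromosome 11, encodes the kinase that acts on the class IIa HDACs. Control replicates 1 to 4 had 1634, 2007, 1549.6 and 1628 normalized counts, and IRF8 KO replicates 1 to 4 had 2024, 2124, 1628 and 1856. The groups overlapped, with the KO library higher in 4 of 4 pairs. A log2 fold change of 0.16 did not pass the test (SE 0.13, 95% interval -0.14 to 0.47, limma adjusted p = 0.46, exact permutation p = 0.23). The other kinases of its family were SIK1, which fell by 0.65 on the log2 scale (limma adjusted p = 0.046), and SIK2, with a log2 fold change of -0.02 (limma adjusted p = 0.94). SIK1 lies on chromosome 21, where it was 0.32 below the median of the chromosome. Its near-identical copy SIK1B, to which reads can be assigned as well, had a log2 fold change of -0.65 (limma adjusted p = 0.045), so the value of SIK1 alone is uncertain.

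The wider pathway was read from 6 lists with 78 different genes, of which 70 passed the filter. Of these, 8 were lower and 4 higher in the IRF8 KO, 12 in all or 17.1%, beside the 18.2% of all tested genes called. The 4 higher include PPARGC1A, which passed the filter only through the KO libraries. With the replicate block 23 were called, at a setting where 28.7% of all tested genes were. The median log2 fold change of the 70 was -0.05. At an unadjusted limma p below 0.05, 16.0% of all tested genes were lower and 15.6% higher. edgeR called 9.2% lower and 8.6% higher, and DESeq2 13.1% lower and 12.8% higher. Genes named below that were called but under 2-fold were chosen after their values were seen.

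The next list holds kinases that phosphorylate class IIa HDACs or MEF2, or that act upstream of the salt-inducible kinases. It also holds STRADA and CAB39, partners of the LKB1 kinase. Of its 17 genes 15 were tested, 2 were lower and 0 higher (median log2 fold change -0.13). At an unadjusted limma p below 0.05, 5 were lower and 3 higher. By edgeR 2 were called lower and 1 higher, and by DESeq2 5 lower and 3 higher. CAMK2D, a calcium/calmodulin-dependent kinase, had 753 ± 219 normalized counts in Control and fell to 129 ± 61.7 in the KO (SD, n = 4 each). Its Control values lay between 525 and 966 and its KO values between 45.8 and 181 (log2 fold change -2.66, SE 0.44, limma adjusted p = 0.0038). SIK1 was the other called kinase. CAB39, a scaffold of the LKB1 kinase complex and the most abundant gene of the list, had 8078 ± 214 and 7028 ± 720 normalized counts (SD, n = 4 each) and was not called (limma adjusted p = 0.23).

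Of the 14-3-3 genes, 6 of 7 were tested, with a median log2 fold change of -0.07. YWHAB fell by 0.81 on the log2 scale (limma adjusted p = 0.0022) and lies on chromosome 20, whose median was -0.92. YWHAZ, the most abundant, had 66836 ± 4016 and 58012 ± 2327 normalized counts (SD, n = 4 each, limma adjusted p = 0.18). Of the 10 corepressor genes, all tested, TBL1XR1, a part of the NCoR complex, and BCOR, a BCL6 corepressor, fell by 0.51 and 0.92 on the log2 scale (limma adjusted p = 0.012 and 0.0081). NCOR1, the scaffold of the NCoR complex and the most abundant gene of the list, had 13226 ± 1840 and 14282 ± 3276 normalized counts (SD, n = 4 each, limma adjusted p = 0.82). The median of the list was -0.04.

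Of the 16 genes of coactivators and the calcineurin pathway, among which the further phosphatase gene PPP2CA was listed, 3 were lower and 1 was higher. Their median log2 fold change was -0.16. NFATC2, a calcineurin-dependent transcription factor, had 740 ± 33.6 normalized counts in Control and fell to 267 ± 93.5 in the KO (SD, n = 4 each, log2 fold change -1.54, limma adjusted p = 0.0047). It too lies on chromosome 20, and its log2 fold change was 0.62 below the median of that chromosome. CRTC3 and NFATC3 fell by 0.62 and 0.47 on the log2 scale (limma adjusted p = 0.023 and 0.042). KAT2B, a histone acetyltransferase, rose from 233 ± 39.1 to 489 ± 73.0 normalized counts (SD, n = 4 each, log2 fold change 1.07, limma adjusted p = 0.0051). EP300 and CREBBP, which encode p300 and CBP, had log2 fold changes of -0.45 and -0.53 and were not called (limma adjusted p = 0.13 and 0.097). With the replicate block both were called lower (limma adjusted p = 0.048 and 0.015), at a setting where 14.6% of all tested genes were called lower. PPP2CA, a phosphatase subunit and the most abundant gene of the list, was not called in either fit (log2 fold change 0.15, limma adjusted p = 0.54 without the block).

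Genes described as MEF2 targets in other tissues were the list with the highest median, 0.44 on the log2 scale, and 17 of its 22 genes were tested. The median and the limma counts below include PPARGC1A, which passed the filter only through the KO libraries. By limma 0 were called lower and 3 higher, where 9.56% of all tested genes were called lower and 8.65% higher. HDAC9, itself a described target, was counted with the members and is not in this list or its median. It was lower in the IRF8 KO (log2 fold change -3.07), with an adjusted p of 0.064 by limma, 0.10 by edgeR and 0.046 by DESeq2. Of the listed targets, 1 was lower and 5 were higher at an unadjusted limma p below 0.05, beside 16.0% and 15.6% of all tested genes. edgeR called 0 lower and 5 higher, beside 9.2% and 8.6% of all. DESeq2 called 0 lower and 6 higher, beside 13.1% and 12.8%. BDNF, a neurotrophin, rose from 67.6 ± 26.6 to 272 ± 62.4 normalized counts (SD, n = 4 each, log2 fold change 2.04, SE 0.30, limma adjusted p = 0.0024). JUN, an AP-1 transcription factor, rose from 311 ± 79.8 to 685 ± 300 (SD, n = 4 each, log2 fold change 1.07, SE 0.31, limma adjusted p = 0.042). PPARGC1A, a coactivator of mitochondrial genes, was between 0 and 1.73 normalized counts in Control and between 25.8 and 90.5 in the KO libraries. It is 1 of the 3 genes called higher by limma and 1 of the 5 higher at the unadjusted limma p. It was tested by edgeR and DESeq2 as well. It passed the filter only through the KO libraries, where it is high. Its adjusted p is therefore not given. Its fold depends on the pseudocount and is not given. The nuclear receptors NR4A1, NR4A2 and NR4A3 had log2 fold changes of -0.51, 0.55 and 1.18, and the Krüppel-like factors KLF2, KLF4 and KLF6 of -0.13, 1.08 and -0.12. None of these 6 genes was called, with limma adjusted p-values of 0.061 to 0.87. ACTA1, the most abundant gene of the list, was not called (log2 fold change 0.18, limma adjusted p = 0.73). Of the 7 other HDACs, 0 were called by limma, edgeR or DESeq2 without the replicate block, and at an unadjusted limma p below 0.05 1 was lower and 1 higher. With the block HDAC6 and HDAC11 were called lower (limma adjusted p = 0.036 and 0.035), where 14.6% of all tested genes were called lower. The median log2 fold change of the 7 was 0.17. HDAC2, the most abundant of them, had a log2 fold change of -0.16 (limma adjusted p = 0.31). HDAC3, which supplies deacetylase activity to class IIa complexes, had one of 0.31 (limma adjusted p = 0.27).

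**Figure D3:**
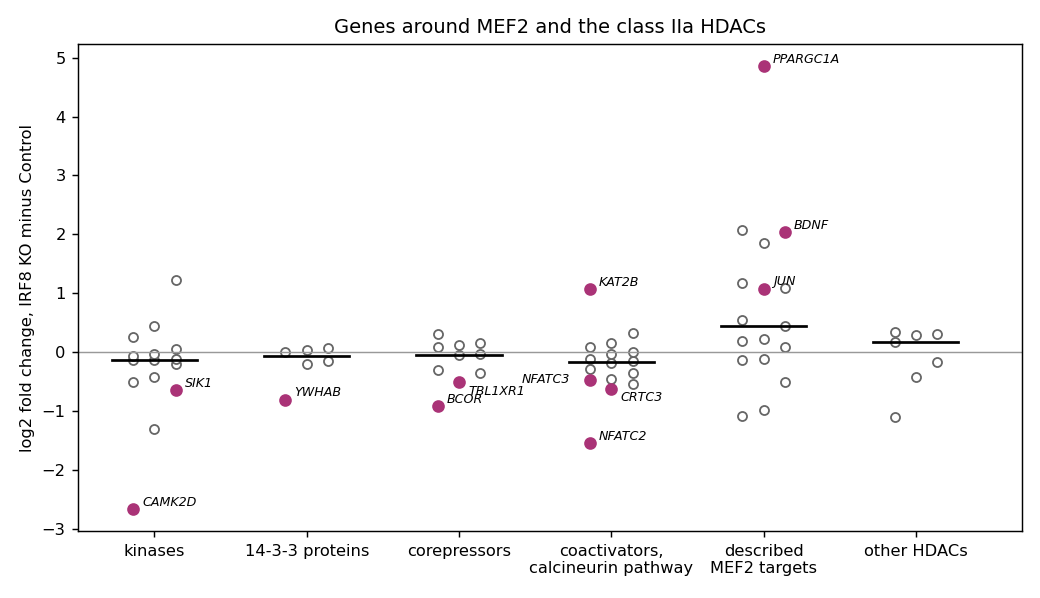
Log2 fold change, IRF8 KO minus Control (y axis), of the tested genes in 6 lists (x axis), each point a gene, filled and named where the limma adjusted p was below 0.05, with the median of each list as a bar. The medians run from -0.16 for coactivators to 0.44 for described MEF2 targets, HDAC3 stands in both the corepressor and the other HDAC list, and 12 genes are filled. PPARGC1A, filled among the targets and part of their median, passed the filter only through the KO libraries.

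For the 2 called members, the genes with the most similar profile were sought among all tested genes, by the root mean square difference of the log2 values minus the Control mean over the 8 libraries. For MEF2D these were ZNF337 (0.155), NAPSA (0.165) and RALGPS1 (0.178). ZNF337 encodes a zinc finger protein and lies on chromosome 20, NAPSA encodes an aspartic protease. Their log2 fold changes were -1.74, -1.78 and -1.67. For MEF2C they were SUN1 (0.091), a protein of the nuclear envelope, L3MBTL3 (0.097), a reader of histone methylation, and ACTN1 (0.100), an actin crosslinker, with log2 fold changes of -0.58, -0.68 and -0.59. In each of these genes all KO values lay below all Control values, as in MEF2C and MEF2D. These genes were selected for likeness, and their differences between the groups are a description.

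**Figure D4:**
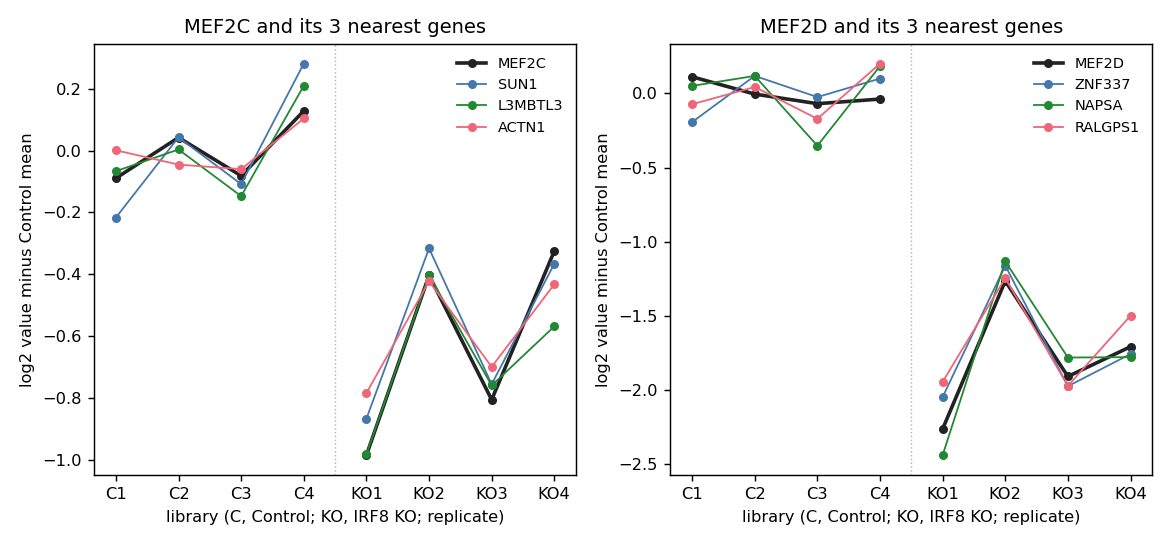
Log2 value minus the Control mean (y axes) in the 4 Control (C) and 4 IRF8 KO (KO) libraries (x axes) for MEF2C (left) and MEF2D (right) in black and the 3 genes with the smallest root mean square difference in colour. In both panels KO replicate 1 is the lowest library of the black line, and the nearest genes have log2 fold changes of -0.58 to -0.68 on the left and -1.67 to -1.78 on the right.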

How the data were processed

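RNA-Seq of 4 Control and 4 IRF8 KO libraries was analysed. The authors prepared libraries with the TruSeq Stranded mRNA kit, aligned reads with RNA-Star to GENCODE transcripts, counted them with featureCounts and deposited a signal per gene, counts normalized with DESeq2. The submitters' processing notes list the builds hg19 and hg38, and the one used for RNA-Seq is not stated there. The signal columns named WT 1 to 4 were read as Control 1 to 4, the only RNA-Seq group beside the knockout. The deposited table of the authors' own comparison (overall means, log2 fold changes, standard errors, Wald scores, p-values) was not used, and the ChIP-Seq samples were not analysed here.

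Of the values divided by that of a single read, 100% were whole within 0.01 reads. Of 19590 genes, 2197 were 0 in every library. Limma 3.58.1 in R 4.3.3 used a trended, robust prior on log2(normalized count + 1), for genes with a mean of at least 10, and a fold change on this scale understates that of low genes. On the whole reads, edgeR 4.0.16 and DESeq2 1.42.0 were alternatives, with other pseudocounts, filters, scalings, a replicate block and left-out libraries. Transcript lengths were not used, so that shares of the family per kilobase, which had been planned, were not computed. Whether counting used strand is not stated, so that reads of overlapping antisense genes could be included. Chromosomes came from RefSeq genes of GRCh38.p14. The scripts were tested on simulated data. Of the marker genes, 1 is not reported here.

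Lists were written from general knowledge, and members and lists were chosen with earlier results of these data known. Genes named are the 9 members, IRF8, in each list up to 6 called genes that differed 2-fold or more and the gene with the highest mean, and the 3 nearest profiles of each called member. Others are named as examples chosen after their values were seen, as were the chromosome medians, the markers MPO and ITGAM, and the replicate sets. Deviations of same-numbered libraries from their group means correlated at 0.37, 0.48, 0.45 and 0.50, and the numbers were treated as pairs. Differently numbered libraries of the same set (1 and 3, or 2 and 4) correlated as highly, at 0.40 to 0.47, so these values do not separate pairs by number from the sets. Control 1 and 3 were the most alike (r = 0.9961) but differed by more than sampling noise, with a chi-square per gene of 7.1, and were counted as separate libraries.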

Additional observations from a re-analysis of the deposited data

How the results depend on the processing

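The values of the 9 genes were recomputed under each alternative, except MEF2B at a minimum mean of 100. MEF2D kept its direction throughout and its call in all alternatives but one, a fit on the means of replicates 1 and 3 and of 2 and 4, added after seeing the data. In that fit the log2 fold changes of MEF2D, MEF2C and IRF8 were -1.79, -0.63 and -2.11, with limma adjusted p-values of 0.067, 0.34 and 0.15, and HDAC9 was at -3.07 with 0.36. It has 4 values in place of 8, and called 165 genes of all, 1 of the pathway and 0 of the members. The log2 fold change of IRF8 was -2.09 in replicates 2 and 4 alone, with an adjusted p of 0.058. HDAC9 passed the threshold with DESeq2 (-2.48), with the replicate block (-3.07), with the sets of replicates as a covariate (-3.07), and within replicates 1 and 3 (-3.84) and 2 and 4 (-2.30). The replicate block ended no call of a member. It called 3769 genes of all and 23 of the pathway, the covariate 4333 and 25, DESeq2 23 of the pathway, and the thresholds of the study 1429 of all, 6 of the pathway and 1 member, against 2387, 12 and 2. With each library left out, 1665 to 2442 genes of all, 8 to 14 of the pathway and 1 to 3 members were called. The log2 fold changes then ranged from -1.96 to -1.63 for MEF2D, -0.73 to -0.51 for MEF2C, -3.72 to -2.21 for HDAC9 and -2.46 to -1.65 for IRF8, whose call was lost without Control replicate 1, Control replicate 3 or KO replicate 1 (limma adjusted p = 0.053 to 0.058).

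Values near 0 changed sign. HDAC7 was below 0 with edgeR (-0.0048), quantile normalization (-0.0041), upper quartile scaling (-0.014) and in replicates 2 and 4 (-0.028), and ranged from -0.086 to 0.080 with each library left out. HDAC4 ranged from -0.084 to 0.23. MEF2B was at -0.19 in replicates 2 and 4 and ranged from -0.074 to 0.27. The cause of these changes was not tested. The median over all tested genes stayed within 0.03 of 0 under every setting. Depth limits MEF2B and the 2 lowest KO libraries of HDAC9, with 15 and 41 reads. No group of 4 libraries held a value far from the others by Dixon's test, in 20 groups tested.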

Other observations

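The 2 genes whose promoter windows hold the MEF2 element, MEF2A and HDAC9, are also the 2 members that differed at least 1.5-fold between replicates 2 and 4 and replicates 1 and 3 in both groups. Such a difference was found in 11.7% of all tested genes, and HDAC5 had no window to search. The match depends on the 1.5-fold cut-off. Without it, the sets did not overlap and differed in the same direction in both groups for 4 members, MEF2A, MEF2B, MEF2C and HDAC9. This was so for 38.2% of all tested genes, and the windows of MEF2B and MEF2C held no MEF2 element. The overlap of these 2 traits was noticed after the values were seen and was not tested. IRF8 differed between the sets in the other direction in Control, with replicates 2 and 4 at 0.472 of replicates 1 and 3. In the KO libraries that quotient was 0.530, and there the sets overlapped.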
